A study of Mus musculus with 2 samples.

Results

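Long noncoding RNAs (lncRNAs) that carry a gene name of their own were described in NHOS cells, a mouse osteosarcoma line, after transfection with IL10RB and after mock transfection. IL10RB is the receptor subunit that interleukin-10 has in common with interleukin-22 and other cytokines. The members were chosen by their counts in these same libraries, so their presence is no finding. A gene was a member when the deposited table typed it as lncRNA, when it had at least 50 counts in 1 of the 2 libraries, and when its name was not that of a predicted gene model, a RIKEN or clone entry, a small nucleolar RNA host of the Snhg series, or 1 of 10 named host or imprinted RNAs. The rule left 54 members of 297 lncRNAs with that many counts, of 9949 lncRNAs and 55414 genes listed. Not every member is a named lncRNA in the strict sense. ENSMUSG00000115801 has an identifier in place of a name, Rps18-ps4 is named as a ribosomal protein pseudogene, and D5Ertd605e and R74862 keep the names of expressed sequence tags.

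There was 1 IL10RB transfectant library and 1 mock library, both from NHOS cells grown in DMEM with serum and the selection drug G418. The labels do not say whether the transfectant is 1 clone or a pool, nor the species of the construct. With 1 library per group there is no p-value, no SD between replicates and no replicate check, so every difference here is between 2 libraries. Intervals are exact 95% intervals that cover counting error only.

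Counts summed to 23898132 in the transfectant library and 18766072 in mock. Il10rb itself had 1641 counts in the transfectant library and 484 in mock, a ratio of 2.57 (2.32 to 2.85) in CPM (counts scaled to library size), in the direction the labels give. The 8 osteoblast and osteosarcoma markers all had at least 50 counts in a library. Of these, 3 were past 2-fold higher, Ibsp (8.86-fold), Bglap (5.64-fold) and Spp1 (4.05-fold), and the list summed to 7607 CPM in the transfectant and 7719 CPM in mock. The Y-linked genes Ddx3y, Eif2s3y, Uty and Kdm5d had 0 in both. Of 5 fibroblast markers 4 passed 50 counts and all 4 were past 2-fold higher, with a list sum of 298 CPM in the transfectant and 97.2 CPM in mock and Thy1 at 0 and 1 counts. The 5 haematopoietic markers summed to 32.9 CPM in the transfectant and 5.47 CPM in mock. Lyz2 (626 and 5 counts) and Cd68 (150 and 12) were higher, Csf1r (24 and 57) was lower, Ptprc, under the threshold, had 0 and 27, and Tyrobp had 0 in both. The part of these marker shifts in the lncRNA values was not tested. The mock library listed more genes with few reads, 10872 genes at 1 to 9 counts against 5390 in the transfectant library, although it was the shallower one. Mock values of a few counts therefore sit at a level that many genes reached.

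lncRNAs are transcripts that are not translated into a known protein. Some stay at their site of transcription and act on the neighbouring gene, some build nuclear bodies, some bind proteins or microRNAs in the cytoplasm, and others are chiefly the precursors of microRNAs. Many lie on the strand opposite to a coding gene and are named after it with the ending os, for opposite strand. The library kit primes cDNA from poly(A) tails, so RNAs without a tail are poorly sampled. It does not keep the strand, so reads from overlapping genes on opposite strands cannot be told apart.

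RefSeq mature sequences (build GRCm38.p6) are shown for 5 members that host microRNAs, because the hosts moved by different amounts and carry different seeds. The other members were not searched for microRNAs. Among these hosts, Mir22hg on chromosome 11 passed 2-fold, and Dleu2 carries a pair of microRNAs with 1 shared seed. Bases 2 to 8, the seed that pairs with target RNAs, are in capitals.
mmu-miR-22-3p, from Mir22hg: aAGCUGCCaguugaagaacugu
mmu-miR-22-5p, from Mir22hg: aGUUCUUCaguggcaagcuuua
mmu-miR-15a-5p, from Dleu2: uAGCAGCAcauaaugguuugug
mmu-miR-16-5p, from Dleu2: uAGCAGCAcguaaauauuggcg
mmu-miR-100-5p, from Mir100hg: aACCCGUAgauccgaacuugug
mmu-miR-125b-5p, from Mir100hg: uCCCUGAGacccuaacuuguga
mmu-miR-199a-3p, from Dnm3os: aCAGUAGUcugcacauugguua
mmu-miR-214-3p, from Dnm3os: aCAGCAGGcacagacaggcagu
mmu-miR-374b-5p, from Ftx: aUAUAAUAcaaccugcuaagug
Each of these sequences lies within the RefSeq span of its host gene. The kit does not read mature microRNAs, so the levels below are those of the host RNA.

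Most named lncRNAs stayed within 2-fold between the libraries. Of the 54 members, 14 exceeded a 2-fold difference upwards in the transfectant (25.9%) and 4 downwards (7.41%), where 19.7% of all 11944 genes that reached 50 counts were higher and 11.9% lower. At 1.5-fold 23 members were higher and 11 lower (30.7% and 23.9% of all genes), and at 4-fold 8 and 1 (6.46% and 1.85%). The counting interval lay wholly past 2-fold for 12 higher and 3 lower members (15.9% and 9.14% of all genes). The median log2 fold (CPM plus 0.5, transfectant over mock) was 0.45 for the members (0.09 to 0.68), against 0.07 for all genes and 0.09 for protein coding genes. The 243 lncRNAs left out by name went further, with 35.8% higher, 14.0% lower and a median of 0.49. In bulk libraries fewer cells of a type and less RNA per cell cannot be told apart.

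Low counts bear on these shares. Of the 48 members under 1000 counts, 13 were higher and 2 lower, against 23.7% and 11.2% of genes in that range. Members that passed 50 counts in 1 library only were chosen through the library where they were higher in counts. Of the 54, 29 had at least 50 counts in both libraries, 21 in the transfectant only and 4 in mock only, and 11 of the 14 higher members came from those 21. Among all 1092 genes that passed in the transfectant only, 75.5% were higher, against 52.4% of these 21, so the count is no trait of the members. The higher members with at least 50 counts in both libraries were D5Ertd605e, Mir22hg and Dubr. The lower members Cerox1 and Has2os passed in mock only. Among the 29 members with enough counts in both, 3 were higher and 2 lower, which is 10.3% and 6.90% against 14.4% and 11.6% of 10607 genes that met the same condition. At the threshold itself, Mirt1 with 51 and 20 counts in the transfectant and mock and Firre with 56 and 23 were just inside. Jpx with 49 and 10 and Trmt61b with 29 and 47 were just outside.

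**Figure D1:**
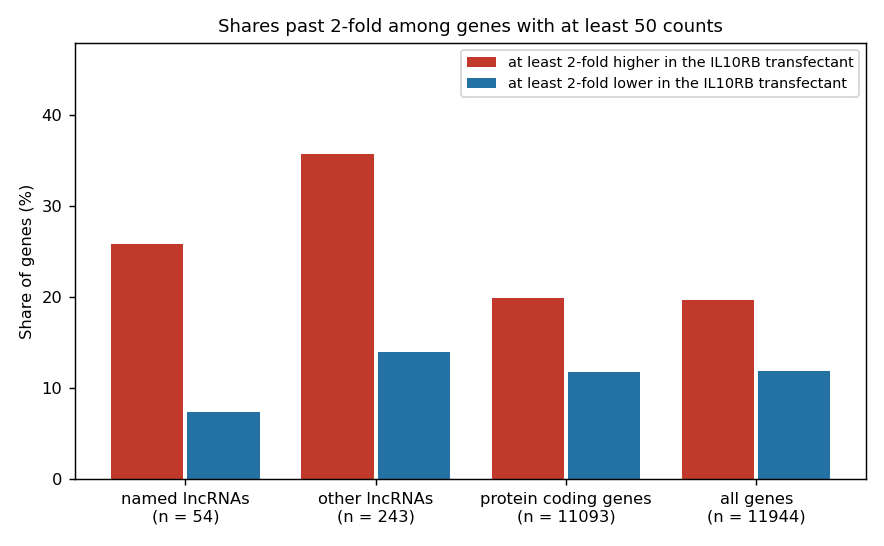
Percent of genes past 2-fold higher (red) and past 2-fold lower (blue), IL10RB transfectant against mock, for 4 sets of genes that reached 50 counts. The named lncRNAs (25.9% and 7.41%) lie near all genes (19.7% and 11.9%), and the other lncRNAs have a higher share in both directions.

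The members covered a wide range of abundance. Summed over the 54, they made up 1143 CPM in the transfectant library and 1161 CPM in mock, and Malat1 alone held 40.5% and 43.8% of that. The median member was at 5.22 CPM in the transfectant and 4.28 CPM in mock. Levels ran from 0.165 CPM (Cerox1) to 462 CPM (Malat1) in the transfectant, and from 0.0542 CPM (Med9os) to 509 CPM (Malat1) in mock. By deposited TPM, which is scaled for length by the authors, the members with the highest mean of both libraries after Malat1 were Rps18-ps4 (41.7 TPM in the transfectant and 94.8 in mock), Norad (52.0 and 58.7) and D5Ertd605e (81.9 and 9.65). Pvt1 (35.0 and 49.5 TPM), Erdr1 (36.2 and 32.2), Sp3os (58.2 and 10.2), Chaserr (37.95 and 23.62), Oip5os1 (27.4 and 29.5) and Gt(ROSA)26Sor (32.54 and 21.04), the transcript of the ROSA26 locus used for transgenes, completed the 10 highest by that mean.

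**Figure D2:**
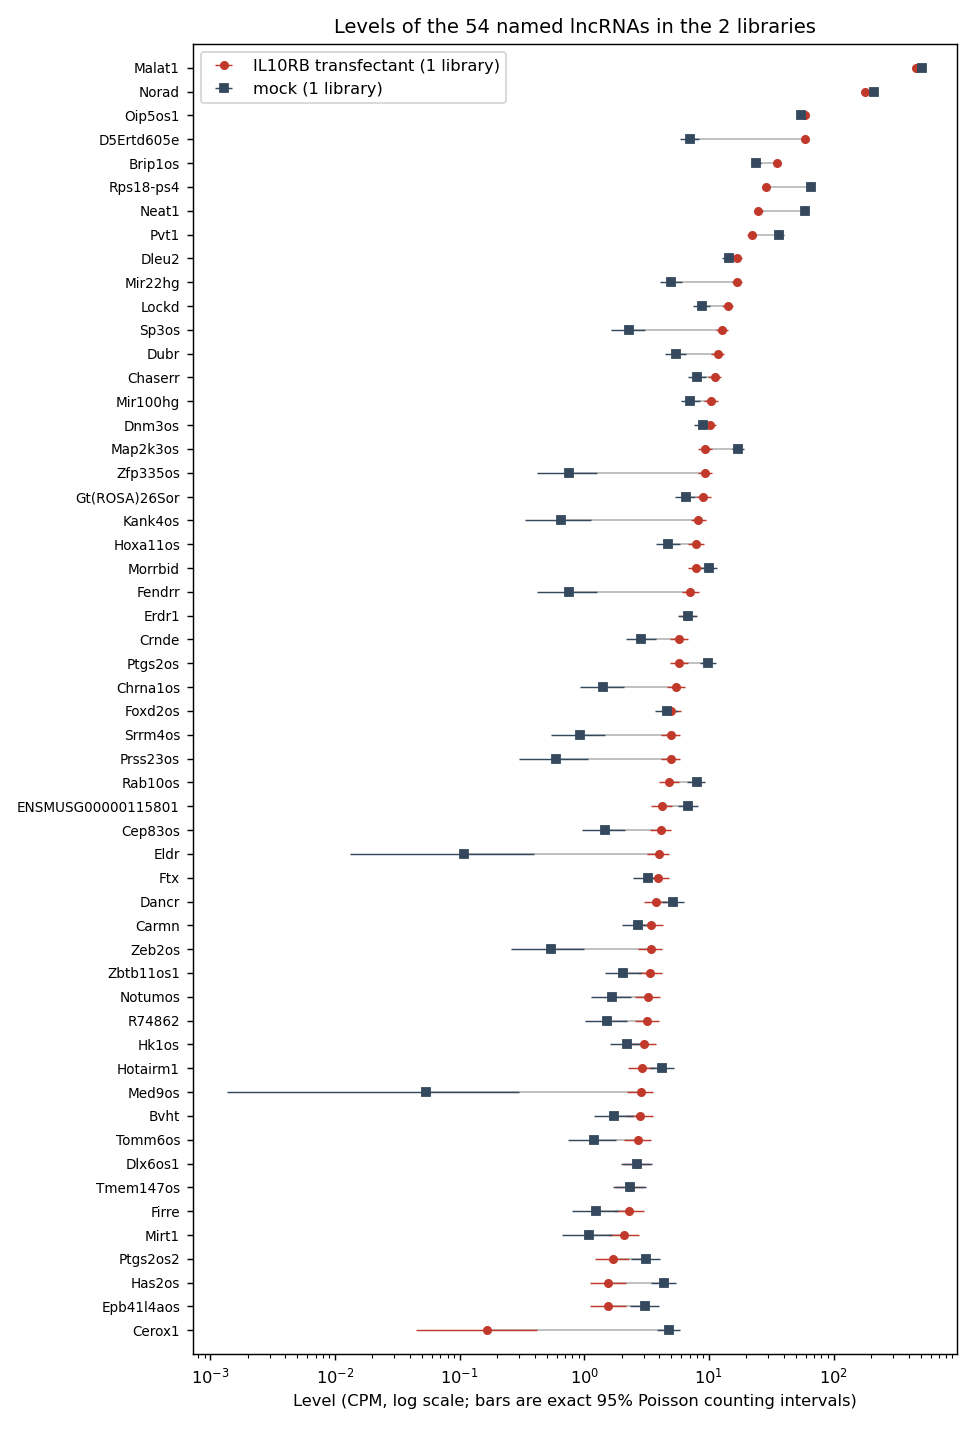
Level of each of the 54 named lncRNAs in CPM on a log axis, in the IL10RB transfectant library (red circles) and the mock library (dark squares), ordered by the transfectant level. Bars are exact 95% Poisson counting intervals, and Malat1, Norad, Oip5os1 and D5Ertd605e stand at the top, with D5Ertd605e far lower in mock.

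The architectural RNAs differed from each other. Malat1, which collects in nuclear speckles, had 11241 counts in the transfectant library and 9383 in mock, or 462 and 509 CPM. Its ratio was 0.909 (0.8845 to 0.9345), close to 1, with an interval that covers counting error only. The choice of scaling moved it outside that interval. Its log2 fold was -0.14 as reported, -0.26 with upper quartile scaling and -0.09 with total counts. Neat1, the scaffold of paraspeckles, lies beside Malat1 on chromosome 19 (5874736 to 5895506, minus strand, as the deposited table gives it). It had 605 counts in the transfectant library and 1085 in mock, which is 24.9 and 58.8 CPM and a level 2.36-fold lower (2.14 to 2.61) in the transfectant.

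The deposited TPM of Neat1 went the other way, at 3.76 in the transfectant and 3.23 in mock. Count and TPM together give an approximate transcript length behind the deposited TPM, calibrated here on genes with 1 listed transcript. Members with 1 transcript show its error. Rps18-ps4, listed at 1073 bases, came to 979 in the transfectant and 973 in mock, and Tomm6os, listed at 2944, to 3290 and 3218. For Neat1 that implied length was 9361 bases in the transfectant library and 25516 bases in mock, the second being above the longest annotated form. The log2 ratio of implied lengths was -1.45, where the central 95% of 10432 genes with several transcripts ran from -0.54 to 0.54 and the other members stayed between -0.48 and 0.61. GENCODE M21 lists Neat1 forms of 20771, 3004, 1030 and 711 bases. Neat1 is known for a short polyadenylated form and a long form without a poly(A) tail that builds the paraspeckle. So fewer Neat1 reads were counted in the transfectant, and their assignment there implied a shorter mean form. The counts of the separate forms were not analysed here.

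Malat1 shows how far such assignment can move a level by length. Its implied length was 574 bases in the transfectant and 546 in mock, near its short annotated forms (485, 556 and 656 bases) and far from the full transcript of 6983 bases. Its deposited TPM of 1139 and 1304 therefore stands above what the full length would give, while the ratio between libraries was little touched. Norad, with implied lengths of 4896 and 5041 bases, was close to its listed length of 4915.

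**Figure D3:**
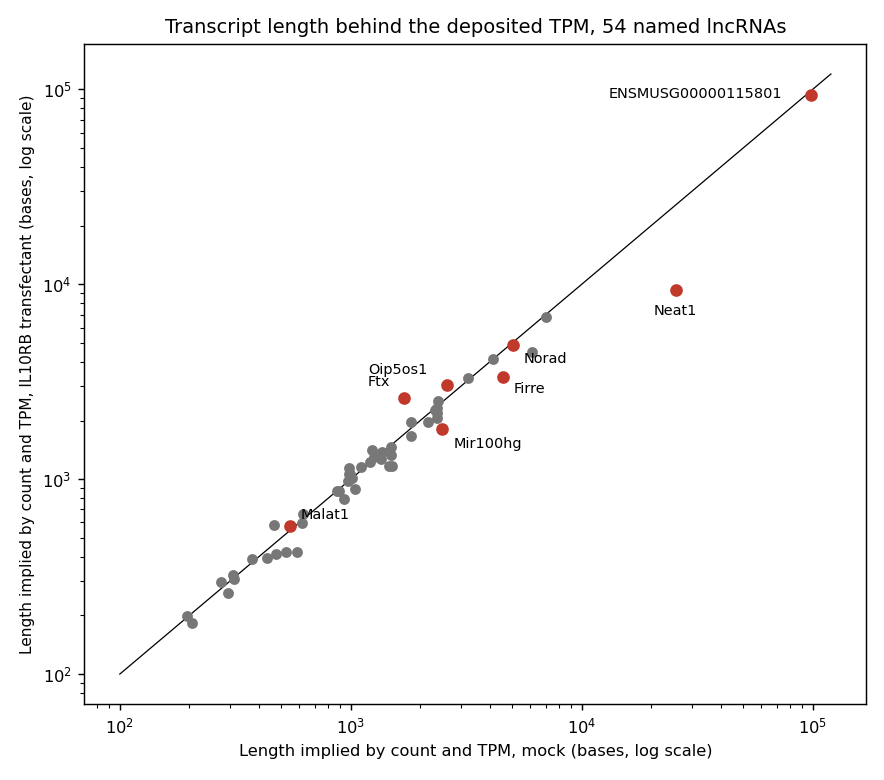
Transcript length implied by the deposited count and TPM of each of the 54 named lncRNAs, in the IL10RB transfectant library (vertical) and in mock (horizontal), in bases on log axes, with the line of equality. Red points are labelled, and Neat1 (9361 and 25516 bases) lies farthest below the line.

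Proteins that build paraspeckles on Neat1 were measured beside it. Of 19 listed genes that reached 50 counts, 4 were at least 2-fold higher and 1 was lower, near the 19.7% and 11.9% of all genes, and the median log2 fold was 0.22. Nono, a core paraspeckle protein, was at 421 CPM in the transfectant and 196 CPM in mock (2.15-fold higher, 2.07 to 2.23). Pspc1 (2.19-fold) and Rbm4b (2.34-fold) were also higher. Cpsf6, a cleavage factor, was at 98.1 CPM in the transfectant and 284 CPM in mock, 2.90-fold lower (2.76 to 3.04).

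**Figure D4:**
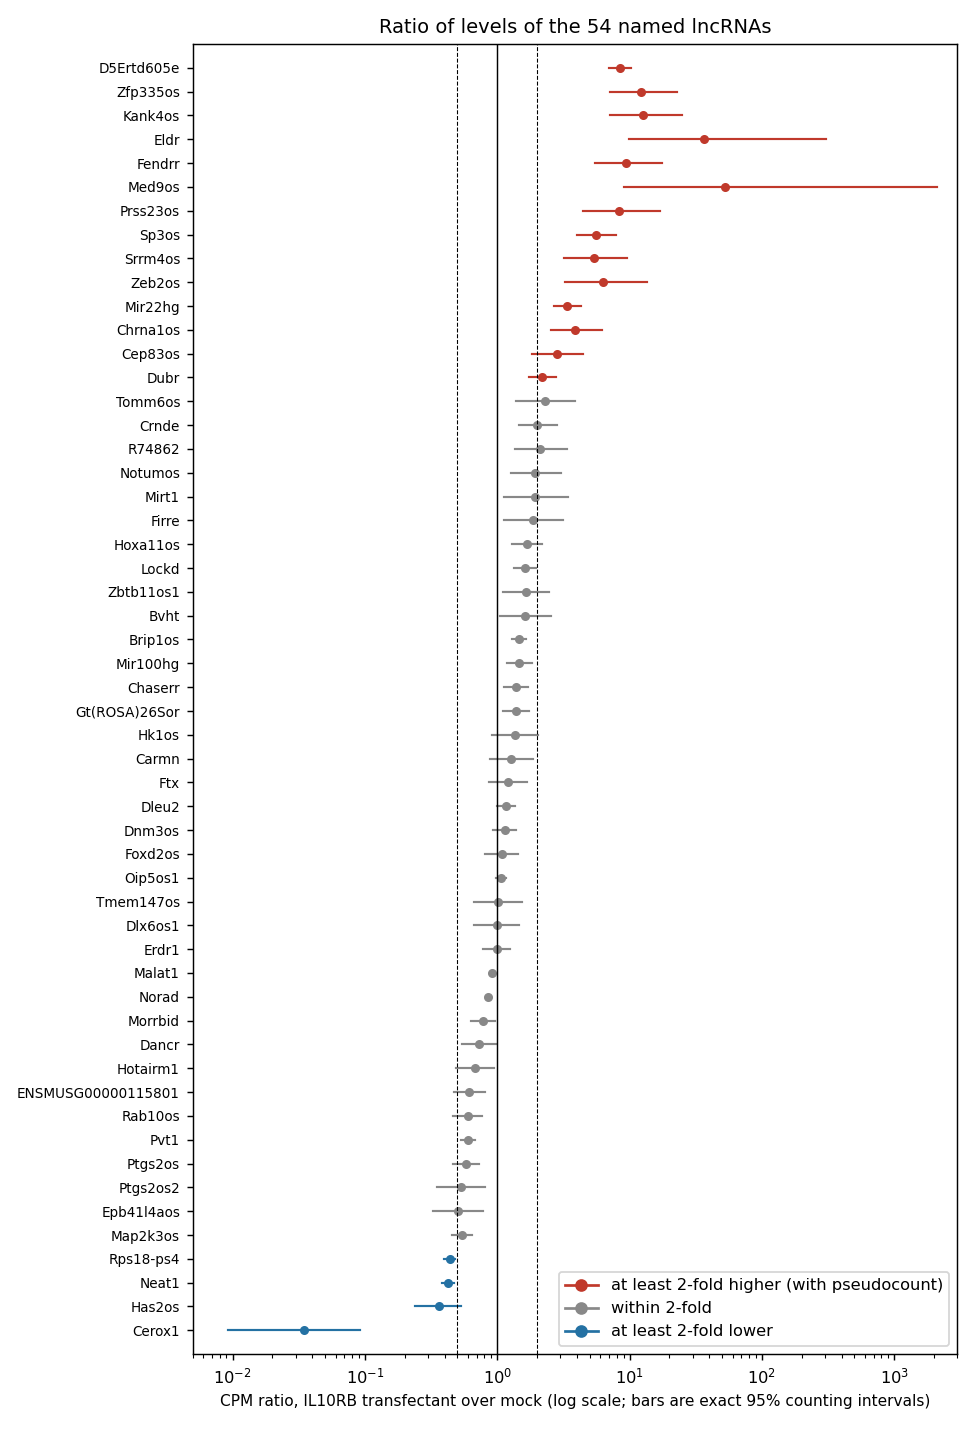
Ratio of CPM, IL10RB transfectant over mock, for each of the 54 named lncRNAs on a log axis, with exact 95% counting intervals, a line at 1 and dashed lines at 0.5 and 2. Colour follows the log2 fold with a pseudocount, so Tomm6os, Crnde and R74862 are within 2-fold on that scale although their ratio is at or above 2.

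Cerox1 was the lowest member. The RNA is named for its cytoplasmic regulation of oxidative phosphorylation. It had 4 counts in the transfectant library and 88 in mock, or 0.165 and 4.77 CPM, a level 29.0-fold lower (10.9 to 109) in the transfectant. Because Cerox1 passed 50 counts in mock only, its direction is given as a description only. Of all genes that passed in mock only, 75.1% were lower. The Cerox1 gene on chromosome 17 (25789332 to 25794017, plus strand) lies head to head with Sox8, their starts 328 bases apart, and Sox8 had 8 and 15 counts. Its promoter is shown because this was the largest ratio in the lower direction; it is the window from 250 bases before to 50 after the RefSeq start, chr17:25570561-25570860, plus strand, GRCm38.p6, with an E-box (CACGTG) and a CCAAT box in capitals.
Cerox1 promoter: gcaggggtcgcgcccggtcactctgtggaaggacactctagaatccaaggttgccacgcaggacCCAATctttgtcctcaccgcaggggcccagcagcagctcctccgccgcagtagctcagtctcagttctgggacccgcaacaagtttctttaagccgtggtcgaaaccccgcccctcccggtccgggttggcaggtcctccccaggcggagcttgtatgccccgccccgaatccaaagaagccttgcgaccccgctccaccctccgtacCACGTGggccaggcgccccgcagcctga

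D5Ertd605e led the higher members by log2 fold and rested on the most reads. It had 1435 counts in the transfectant library and 129 in mock, or 59.0 and 6.99 CPM. Its level was 8.44-fold higher in the transfectant (7.05 to 10.2), and the deposited TPM gave 81.9 and 9.65. The gene lies on chromosome 5 (147355411 to 147359854, plus strand), overlaps no coding gene body, and has whole-number counts, so these reads were not split with another gene. The nearest coding start, that of Pan3, is 11560 bases away, and Pan3 had 267 and 429 counts.

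Several higher members rested on few mock reads, and their ratios have wide intervals. Med9os had 69 counts in the transfectant library and 1 in mock (ratio 52.4, 9.09 to 2098). Eldr, which lies downstream of the growth factor receptor gene Egfr, had 96 and 2 (36.4, 9.81 to 305). Kank4os had 200 and 12 counts (12.6-fold higher, 7.08 to 24.9). Zfp335os had 226 and 14 (12.2-fold higher, 7.15 to 22.8). All 4 passed 50 counts in the transfectant only, so their direction is given as a description only.

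Of the 3 members on the list of muscle, heart and mesenchymal RNAs, Fendrr, Carmn and Dlx6os1, the first passed 2-fold. Fendrr, required in the mouse for heart and body wall development, had 173 counts in the transfectant library and 14 in mock, 9.38-fold higher (5.44 to 17.5). Fendrr passed 50 counts in the transfectant only, so its direction is given as a description only. Its head-to-head neighbour Foxf1, a transcription factor of the lateral mesoderm 1276 bases from its start, was even, with 359 and 269 counts and a ratio of 1.01 (0.862 to 1.19). Bvht, which is not on that list and is named braveheart for its part in cardiac commitment of mouse cells, had 68 and 32 counts and a ratio of 1.61 (1.05 to 2.54). Carmn, an RNA of cardiac and smooth muscle lineages, had 84 and 50 (1.27, 0.888 to 1.85). Dlx6os1, from the Dlx5 and Dlx6 homeobox locus, had 64 and 49 (0.991, 0.673 to 1.47). On the same list but no members, Emx2os had 19 and 2 counts, Sox2ot 12 and 33, and Trerf1, typed as protein coding, 357 and 53, all past 2-fold.

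The microRNA hosts with sequences shown above had 1 member past 2-fold. Mir22hg had 409 counts in the transfectant library and 92 in mock, or 16.8 and 4.99 CPM, 3.37-fold higher (2.68 to 4.28). Mir22hg overlaps the coding gene Tlcd2, whose start is 176 bases from its own and which had 243 and 220 counts. Mir100hg, host of miR-100, let-7a-2 and miR-125b-1, was at 10.4 and 7.10 CPM (ratio 1.47, 1.19 to 1.83). Dleu2, host of miR-15a and miR-16-1, was at 16.9 and 14.5 CPM (1.17, 0.996 to 1.37), and Dnm3os, host of miR-199a-2 and miR-214, at 10.1 and 8.89 CPM (1.14, 0.930 to 1.40). Ftx, host of miR-374b and miR-421 and an activator of Xist, was at 3.91 and 3.25 CPM (interval of the ratio 0.861 to 1.69). Intervals for Dleu2, Dnm3os and Ftx include 1. Among 15 genes of microRNA processing and Argonaute function past 50 counts, 1 was higher, Tnrc6b at 2.72-fold (2.41 to 3.06), and 0 were lower. Of all genes, 19.7% were higher and 11.9% lower.

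The Mir22hg promoter is shown as that of the host that passed 2-fold (chr11:75461289-75461588, plus strand, GRCm38.p6, from RefSeq). Its 2 CCAAT boxes, 1 on each strand, are in capitals.
Mir22hg promoter: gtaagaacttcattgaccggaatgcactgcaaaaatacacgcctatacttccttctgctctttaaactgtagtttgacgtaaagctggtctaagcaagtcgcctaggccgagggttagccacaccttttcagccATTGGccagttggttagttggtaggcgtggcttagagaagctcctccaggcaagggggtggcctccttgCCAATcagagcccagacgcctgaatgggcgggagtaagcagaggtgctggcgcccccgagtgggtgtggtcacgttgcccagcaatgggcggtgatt

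Norad, Oip5os1 and Dancr, the members listed as acting in the cytoplasm or on other RNAs, stayed within 2-fold. Norad, which binds PUMILIO proteins and guards genome stability, had 4382 counts in the transfectant library and 3897 in mock, a ratio of 0.853 (0.817 to 0.891). Oip5os1, known as Cyrano, directs the decay of miR-7; it had 1435 and 1019 counts and a ratio of 1.07 (0.986 to 1.16). Dancr, which holds progenitor cells undifferentiated, had 91 and 95 counts (0.727, 0.539 to 0.979).

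The X-linked RNAs of dosage compensation were scarce. Xist, which coats the inactive X, had 1 count in the transfectant library and 6 in mock, and its antisense Tsix had 0 in both, so neither is a member. Jpx, on the same list and just under the threshold, had 49 and 10 counts (log2 fold 1.27, past 2-fold). Firre, an X-linked RNA of nuclear organisation, had 56 and 23 counts (ratio 1.85, 1.12 to 3.15). Erdr1, annotated at the end of the X, had 163 and 125 (0.990, 0.779 to 1.26). Among 20 protein cofactors of X inactivation, all past 50 counts, 2 were lower and 0 higher, where 11.9% and 19.7% of all genes were. Rbm15, an adaptor for RNA methylation, was 9.05-fold lower (7.96 to 10.3), and Spen, the silencing factor that binds Xist, 4.29-fold lower (3.78 to 4.89).

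The members listed for the HOX clusters, p53 and immune or stress responses stayed within 2-fold. Hotairm1, in the HOXA cluster, had 70 counts in the transfectant library and 78 in mock (ratio 0.681, 0.486 to 0.953). Hoxa11os, antisense to Hoxa11 in the same cluster, had 191 and 87 counts (1.67, 1.29 to 2.17), while Hoxa11 had 593 and 608 (0.740, 0.660 to 0.830). Under the threshold of 50 counts, Hoxaas3 had 39 and 10 counts (log2 fold 1.01, past 2-fold), Hotair 0 and 4, and Hottip 0 and 9. Trp53cor1, the p53-induced lincRNA-p21, had 14 and 13 counts and Lncpint 27 and 12, so both are non-members. Morrbid, which restrains Bcl2l11 in mouse myeloid cells, had 190 and 185 counts (0.779, 0.633 to 0.959), and Bcl2l11 had 448 and 526 counts (0.646, 0.569 to 0.735). Mirt1, first described after myocardial infarction in mice, was at 2.10 and 1.08 CPM (1.94, 1.13 to 3.43).

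Pvt1 and Ptgs2 antisense RNAs had ratios below 1 beside coding genes that were past 2-fold lower. Pvt1, which lies downstream of Myc, had 538 counts in the transfectant library and 679 in mock, 1.66-fold lower (1.48 to 1.87). Myc, with its start 52595 bases away, was at 128 CPM in the transfectant and 697 CPM in mock, 5.45-fold lower (5.24 to 5.67). Ptgs2os starts 68 bases from Ptgs2, the inducible cyclooxygenase, on the other strand. It was at 5.76 CPM in the transfectant and 9.87 CPM in mock, 1.71-fold lower (1.37 to 2.15), and Ptgs2os2, 64917 bases from the same start, was 1.86-fold lower (1.23 to 2.85). Ptgs2 was at 32.6 CPM in the transfectant and 112 CPM in mock, 3.44-fold lower (3.17 to 3.74). The gene bodies of Pvt1 and Myc, and of both antisense RNAs and Ptgs2, do not overlap.

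Partner genes were then taken for the members whose symbols name one. A symbol gave a partner for 27 members, and 23 of those partners had at least 50 counts. Ptgs2 was counted for both of its antisense RNAs, and Rps18, on another chromosome, for Rps18-ps4. Both genes were at least 2-fold higher in 2 pairs and both at least 2-fold lower in 2 more, while 2 pairs went past 2-fold in opposite directions. The lncRNA alone was higher in 3 pairs, the partner alone was higher in 2 and lower in 2, and 10 pairs had neither past 2-fold. The log2 folds had the same sign in 14 of 23 pairs. All 7 higher lncRNAs of these pairs passed 50 counts in the transfectant only, and Has2os in mock only. The filter itself favoured their direction, so these pair counts are a description only. Of all genes that passed in the transfectant only, 75.5% were higher. Among the 23 partners 4 were higher and 6 lower, beside 19.7% and 11.9% of all genes.

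Med9os and Prss23os were the pairs that were higher together. Med9os starts 64 bases from Med9, a Mediator subunit gene that had 2786 counts in the transfectant library and 970 in mock (2.18-fold higher, 2.03 to 2.35). Prss23os had 120 and 11 counts (8.28-fold higher, 4.47 to 17.0), and the secreted protease gene Prss23 had 1907 and 353 (4.10-fold higher, 3.66 to 4.61). In GENCODE M21, 54.3% of the exon bases of Prss23os lie in coding exons, so reads of the pair cannot be told apart there. Has2os and Rps18-ps4 were the pairs that were lower together. Rps18-ps4, on chromosome 13, is paired with Rps18, on chromosome 17, by name and not by position. Has2os had 38 counts in the transfectant library and 80 in mock, 2.77-fold lower (ratio 0.360, 0.238 to 0.537), and Has2, the hyaluronan synthase gene it overlaps, had 270 and 429 counts, 2.09-fold lower (1.79 to 2.45). Rps18-ps4 had 702 and 1215 counts and was 2.28-fold lower (2.08 to 2.51), Rps18 2.23-fold (2.12 to 2.35) and the overlapping copy Rps18-ps6 2.27-fold (2.21 to 2.33). The deposited counts of Rps18-ps4 are fractional (701.85 in the transfectant and 1215.47 in mock), so some of its reads were shared with another gene. Whether these copies shared them was not tested, so the Rps18-ps4 value is uncertain.

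Sp3os and Cep83os were past 2-fold higher while their partners were past 2-fold lower. Sp3os had 309 counts in the transfectant library and 42 in mock, or 12.7 and 2.28 CPM, 5.58-fold higher (4.04 to 7.90). Sp3, a transcription factor gene with its start 1022 bases away, was at 29.2 and 64.5 CPM, 2.20-fold lower (2.01 to 2.42). As a share of the pair's CPM, Sp3os made up 30.3% in the transfectant and 3.41% in mock. Cep83os had 100 counts in the transfectant library and 27 in mock, 2.81-fold higher (1.82 to 4.47), and Cep83, a centriole gene 78 bases from its start, had 524 and 972, 2.44-fold lower (2.20 to 2.72). The bodies of Sp3os and Sp3 overlap, and those of Cep83os and Cep83 do not.

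Zfp335os, Zeb2os and Chrna1os passed 2-fold without their partners. Zfp335, whose start is 403 bases from that of Zfp335os, had 876 counts in the transfectant library and 1273 in mock (1.92-fold lower, 1.76 to 2.09), just inside the threshold. Zeb2os had 83 and 10 counts (6.30-fold higher, 3.26 to 13.6), and Zeb2, a repressor of E-cadherin, was even at 45.3 and 44.0 CPM (1.03, 0.940 to 1.13). The bodies of Zfp335os and Zeb2os overlap those of their partners. In GENCODE M21, 18.4% of the exon bases of Zfp335os and 32.8% of those of Zeb2os lie in coding exons. Reads there cannot be told apart by strand. Chrna1os had 133 and 26 counts (3.88-fold higher, 2.54 to 6.16), and Chrna1, a muscle acetylcholine receptor subunit, had 50 and 30. Srrm4os had 120 and 17 counts (5.36-fold higher, 3.21 to 9.50), with Srrm4 under the threshold at 29 and 17. Srrm4os too passed 50 counts in the transfectant only, so its direction is given as a description only.

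The reverse was seen where the partner moved and the lncRNA did not pass 2-fold. Notum, a Wnt deacylase gene, was 2.84-fold higher (2.61 to 3.09) and Notumos at a ratio of 1.93 (1.26 to 3.03). Dlx6 had 109 counts in the transfectant library and 25 in mock (3.31-fold higher, 2.13 to 5.34) beside an even Dlx6os1. Map2k3os and the kinase gene Map2k3, whose starts are 166 bases apart, leaned apart, with Map2k3os at 9.34 and 17.2 CPM (1.85-fold lower, 1.55 to 2.20) and Map2k3 at 679 and 348 CPM (1.95-fold higher, 1.90 to 2.01). Epb41l4aos, at 38 and 57 counts, and Epb41l4a, at 1778 and 903, had the same pattern of signs.

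**Figure D5:**
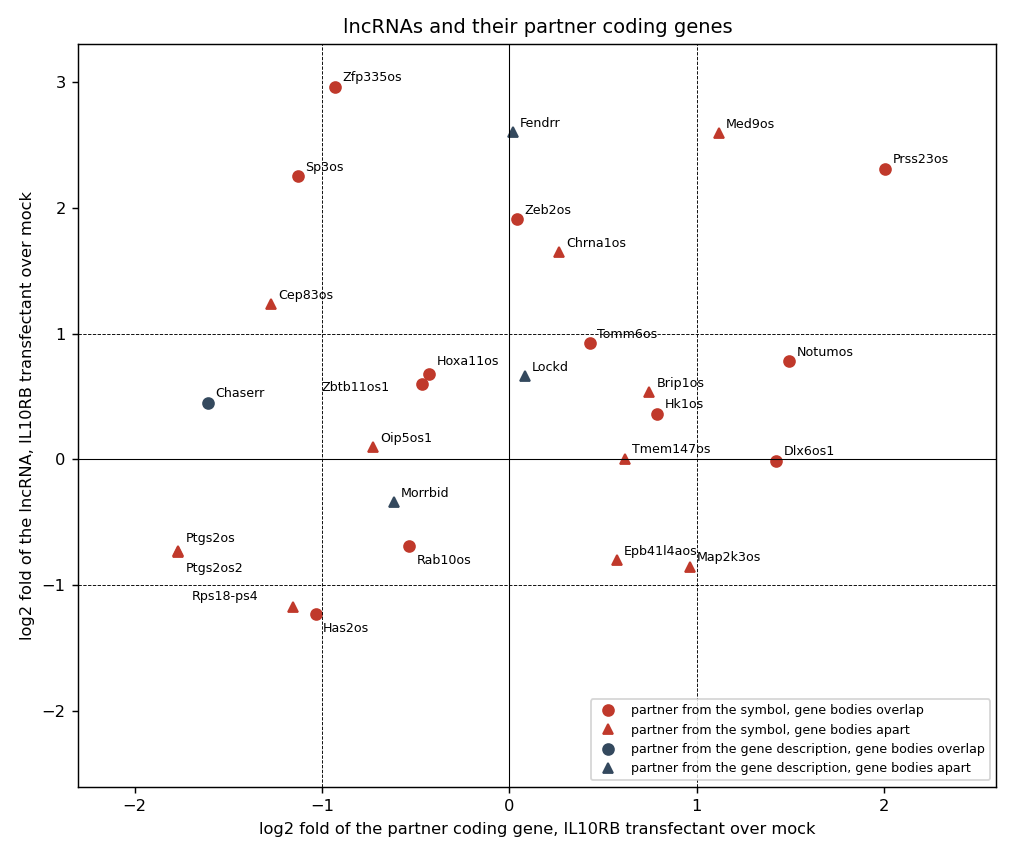
log2 fold (IL10RB transfectant over mock) of lncRNAs on the vertical axis and of their partner coding genes on the horizontal axis, for 23 pairs named by symbol (red) and 4 named in the gene description (dark), circles where gene bodies overlap and triangles where they do not. Dashed lines mark 2-fold, with Sp3os and Cep83os at the upper left, Prss23os and Med9os at the upper right, and Has2os and Rps18-ps4 at the lower left.

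Partners named in the gene descriptions were looked up after the values were seen. Chaserr is known in the mouse to hold down its neighbour Chd2, a chromatin remodeller gene. Chaserr had 271 counts in the transfectant library and 148 in mock (ratio 1.39, 1.13 to 1.71), and Chd2 was at 24.2 and 74.8 CPM, 3.09-fold lower (2.80 to 3.41). Their gene bodies overlap, and 30.5% of the M21 exon bases of Chaserr lie in coding exons. Lockd, downstream of the cell cycle inhibitor gene Cdkn1b, was at a ratio of 1.62 (1.34 to 1.96) and Cdkn1b at 1.06 (0.941 to 1.19). Dubr, which silences Dppa2 in mouse myoblasts, had 287 and 100 counts (2.18-fold higher, 1.73 to 2.76), with Dppa2 at 21 and 26 counts. Egfr, the partner taken for Eldr, lies 16996 bases from it and had 20 and 26. The coding gene head to head with Eldr is Fbxo48, with starts 93 bases apart and 4 counts in each library.

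Position in the genome was not used to choose members. By the coordinates of the deposited table, 19 members lay head to head with a coding gene, on the opposite strand with starts within 2000 bases. Another 15 overlapped a coding gene body in some other way, and 20 lay further away. At least 2-fold higher were 6 of the 19, 5 of the 15 and 3 of the 20, and lower were 1, 2 and 1, beside 19.7% and 11.9% of all genes. Every higher head-to-head member passed 50 counts in the transfectant only, as did every higher overlapping member except Mir22hg. Of the higher members further away, Chrna1os did so too. Since 75.5% of all genes that passed in this way were higher, the class counts are a description only. Of the 28 members that overlap no coding gene, 7 were higher and 1 lower, against 7 and 3 of the 26 that do. Fractional counts, which arise when reads are shared between genes, marked 24 of 54 members (44.4%). They marked 33.5% of all genes that reached 50 counts and 55.1% of the lncRNAs left out by name.

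Promoter windows of members that start within 100 bases of a coding gene show the sequence between a pair. Med9os (with Med9, both higher), Cep83os (Cep83 lower) and Ptgs2os (Ptgs2 lower) are given because their partners moved in different ways. They are RefSeq windows of 300 bases on GRCm38.p6, all on the minus strand, at chr11:59948098-59948397, chr10:94688564-94688863 and chr1:150099825-150100124. Capitals mark the single motif match, an E-box (CACGTG) in Ptgs2os.
Med9os promoter: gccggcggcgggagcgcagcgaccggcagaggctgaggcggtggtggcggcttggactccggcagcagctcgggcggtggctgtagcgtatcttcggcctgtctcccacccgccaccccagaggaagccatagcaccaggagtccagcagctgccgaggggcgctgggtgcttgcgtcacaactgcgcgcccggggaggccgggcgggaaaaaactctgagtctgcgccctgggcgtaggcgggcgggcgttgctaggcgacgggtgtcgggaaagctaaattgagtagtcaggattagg
Cep83os promoter: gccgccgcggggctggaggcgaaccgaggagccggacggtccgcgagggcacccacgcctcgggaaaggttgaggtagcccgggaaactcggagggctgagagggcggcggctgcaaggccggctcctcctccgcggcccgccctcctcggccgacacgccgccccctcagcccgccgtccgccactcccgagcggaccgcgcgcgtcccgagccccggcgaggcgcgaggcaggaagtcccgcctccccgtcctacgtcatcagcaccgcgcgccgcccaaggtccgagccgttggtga
Ptgs2os promoter: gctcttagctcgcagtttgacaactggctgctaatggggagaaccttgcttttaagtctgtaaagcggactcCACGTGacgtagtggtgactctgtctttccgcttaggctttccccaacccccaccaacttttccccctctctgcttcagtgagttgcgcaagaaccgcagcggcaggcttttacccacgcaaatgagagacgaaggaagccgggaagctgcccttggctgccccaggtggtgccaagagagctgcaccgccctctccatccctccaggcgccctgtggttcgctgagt
The GC content of these windows was 68.7%, 76.7% and 57.7%, and they held 30, 46 and 14 CpG dinucleotides, against a median of 52.7% and 7 over 32851 promoter windows. Over the 38 promoter windows of members the medians were 57.5% and 14.5, near the values of Ptgs2os.

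Of the 54 members, 34 had a RefSeq promoter, with 38 windows in all. Both strands were searched for 6 motifs. The cyclic AMP response element (TGACGTCA) and the C/EBP-ATF response element (TGATGNAAT) matched 0 of the 38 windows, and 1.79% and 0.965% of all windows. The interferon-stimulated response element matched 2 (3.44% of all), the E-box 7 (7.15%), the CCAAT box 17 (37.4%) and the TATA box (TATAAA) 3 (13.6%). No motif overlapped another in the windows printed.

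Genes that destroy nuclear RNA were measured as background to the nuclear RNAs. Of 23 listed genes of the exosome, its helicase and its adaptors that reached 50 counts, 8 were past 2-fold lower and 1 higher (11.9% and 19.7% of all genes), and the median log2 fold was -0.42 against 0.07 for all genes. Dis3, an exosome nuclease, was at 27.6 CPM in the transfectant and 70.0 CPM in mock (2.54-fold lower, 2.31 to 2.79). Exosc10, the other nuclear nuclease, was at 108 and 260 CPM (2.41-fold lower, 2.30 to 2.53), and the subunit gene Exosc7 2.29-fold lower. Ncbp2, of the cap binding complex, was the higher gene, 3.83-fold (3.54 to 4.15). Counts for such a list describe these libraries and do not link it to the lncRNAs.

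The remaining members were within 2-fold on the log2 scale with the pseudocount. Crnde, named for its expression in colorectal tumours, had 140 counts in the transfectant library and 53 in mock, a ratio of 2.0045 (1.45 to 2.80). Tomm6os, R74862, Zbtb11os1, Brip1os, Hk1os, Foxd2os and Tmem147os had ratios of 1.01 (Tmem147os) to 2.28 (Tomm6os). Rab10os and ENSMUSG00000115801 had ratios of 0.599 and 0.614. ENSMUSG00000115801 is listed as 1 exon of 93147 bases that overlaps the coding gene Gm5624, so its 102 and 126 counts are spread thinly. Over all 36 members within 2-fold, the counting interval lay above 1 for 14, below 1 for 12 and included 1 for 10.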

How the data were processed

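Per the file headers, the authors' table holds 1 estimated count column and 1 TPM column for each library. The deposited estimated counts are not normalised, and the deposited TPM is scaled for length and depth by the authors. DRAGEN is named in the submitters' processing notes; its role is unstated, and build and annotation were not given in the sources used, so positions are those of the table. GENCODE M21 and RefSeq (GRCm38) served for exon overlap and sequences.

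Estimated counts were rounded to whole numbers and scaled to CPM with TMM factors of 1.02 (transfectant) and 0.983 (mock) from edgeR 4.0.16 in R 4.3.3. DESeq2 1.42.0 gave alternative size factors, and neither tool was used for a test. 1 count equalled 0.0411 CPM in the transfectant and 0.0542 CPM in mock. Calls used the log2 fold of CPM plus 0.5 at 2-fold; ratios are of CPM, with exact conditional (Clopper-Pearson) 95% intervals. Intervals came from scipy 1.17.1 under Python 3.11.15, with pandas 2.3.3, numpy 2.4.6 and, for plots, matplotlib 3.10.9. Reads are amplified without molecular identifiers in the file.

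On simulated counts of this comparison (11944 genes), 100 of 100 genes seeded 4-fold higher and 100 of 100 lower passed the call, as did 0 of 11744 genes left unchanged; 95.7% of intervals covered the true ratio; the simulation holds counting noise only. Named genes were the 12 highest and 12 lowest members by log2 fold, the 10 highest by TPM, members of role lists, their partners, and up to 4 genes per machinery list; other members are named so that each is accounted for. The members, lists and tests were chosen with earlier results of these data known. Some results of the gene lists and neighbouring genes are not reported here.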

Additional observations from a re-analysis of the deposited data

How the results depend on the processing

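Among the 54 members the counts of higher and lower genes moved by no more than 1.5 times under 3 other scalings, pseudocounts of 0.1 and 2, and the deposited TPM (12 to 16 higher and 3 to 4 lower), and the median log2 fold ran from 0.34 to 0.58. Upper quartile scaling moved the median of all genes to -0.04, against 0.07. Without a filter on low counts, 274 named lncRNAs gave 27 higher, 15 lower and a median of -0.15, since genes with few counts enter. With at least 200 counts in a library, 6 of 20 were higher and 2 lower. Members overlapping no coding gene gave 7 and 1 of 28, and 8 of 30 with whole counts were higher. No share of all genes is given for these settings, so their counts describe the members only. With at least 50 counts in both libraries, a condition added after seeing the data, 3 of 29 were higher and 2 lower. Of all genes that met this condition, 14.4% were higher and 11.6% lower. With the fold set to 1.5, the counts became 23 and 11 (30.7% and 23.9% of all genes), and at a fold of 4, 8 and 1 (6.46% and 1.85%). The counting interval lay wholly past 2-fold for 12 higher and 3 lower members (15.9% and 9.14% of all genes).

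Of 246 log2 folds of 41 named members under 6 alternatives, 213 stayed within the counting interval, widened to the reported log2 fold where the pseudocount put that outside, 32 did not, and Neat1 reversed, at 0.19 in the deposited TPM against -1.22. The 7 further sign changes were of members within 2-fold. The log2 fold of Il10rb ran from 1.23 to 1.42. No paired analysis was possible because only 1 transfectant and 1 mock library were compared. Depth limits members with few mock counts, such as Med9os and Eldr.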
